A study of Mus musculus with 4 samples.

Results

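Type 2 conventional dendritic cells (cDC2) of the mouse ovary were examined at 3 and 15 months of age, in single-cell RNA sequencing of sorted CD45+CD11b+ cells, the myeloid cells of the tissue. The members were chosen by their own transcripts, that is, by the UMI counts of 11 genes, so those genes are described and not tested. Transcripts were counted as unique molecular identifiers (UMIs, 1 for each captured transcript molecule). A member had at least 2 UMIs of Cd209a, a C-type lectin of cDC2, and at least 10 of H2-Ab1, a chain of MHC class II. It had at most 1 UMI of Xcr1 and Clec9a together, which mark type 1 dendritic cells (cDC1), and at most 1 of Ccr7, which marks mature dendritic cells. It had under 10 UMIs of the macrophage genes C1qa, C1qb and C1qc together and at most 2 of the B cell genes Cd79a, Cd79b and Ms4a1 together. The gate held 371 of 6281 kept cells, 165 at 3 months and 206 at 15 months. Kept cells were those of 8074 barcodes with at least 500 genes, at least 1000 UMIs, at most 10% mitochondrial UMIs and 1 dominant hashtag.

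Dendritic cells take up antigen in tissues and present it to T cells. cDC2 depend on the transcription factor IRF4, carry CD11b and Sirpa, and present mainly on MHC class II to CD4 T cells, whereas cDC1 depend on IRF8 and BATF3 and present to CD8 T cells. Cd209a is also made by dendritic cells that arise from monocytes, which share most of these markers with cDC2.

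The animals were virgin wild-type C57BL/6J mice. At each age, cells from 3 pools of ovaries were marked with hashtag antibodies, joined, sorted once and made into 1 droplet library, so age and library cannot be told apart anywhere in these data. The description of the series gives 2 mice for each pool. The protocol instead gives 6 animals of 2 to 3 months, and 5 animals of 14 to 17 months with 1 pool from a single mouse, which is not identified. The pools are the replicates, 3 of each age, and every p-value measures only the spread between pools within libraries. The series title names the question as the change of ovarian macrophages with aging, and the cDC2 lie in the same sort.

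The 3-month library held 27277073 gene UMIs over 3135 barcodes and the 15-month library 45060166 over 4939. The pools gave 37, 34 and 94 cDC2 at 3 months and 29, 150 and 27 at 15 months, with 262572 to 1693130 UMIs in all members of a pool. The median cDC2 had 8590.5 to 10706 UMIs by pool, and its median mitochondrial share was 1.38 to 1.56% in the 3-month pools and 1.67 to 2.31% in the 15-month pools. The libraries shared 3 barcodes, none of them a member. At the edge of the gate, 29 cells met every other limit with 1 UMI of Cd209a, against 27 with 2 and 21 with 3. The limit on C1q genes removed 46 cells, and 15 members lay just inside it with 5 to 9 C1q UMIs, against 8 cells just outside with 10 to 19. The H2-Ab1 limit was rarely near: 358 members had at least 50 UMIs of it.

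The transcripts that the gate did not use were compared with those of 189 cDC1 and 1777 MHC class II-positive C1q macrophages taken by gates of the same kind. The median depths were 9617 UMIs in cDC2, 14485 in cDC1 and 10881 in C1q macrophages. All levels between kinds of cell are described without a test, since the gates set them apart. Tnip3, an inhibitor of NF-kB signalling, was seen in 89.5% of cDC2, 24.3% of cDC1 and 28.2% of C1q macrophages. Clec10a, a galactose-binding lectin, was seen in 75.2% of cDC2, 3.17% of cDC1 and 36.5% of C1q macrophages, and its paralog Mgl2 in 48.5%, 2.65% and 42.5%. Irf4 was seen in 29.4% of cDC2, 3.70% of cDC1 and 3.21% of C1q macrophages. These genes set the members apart from cDC1 in the direction the label states, while Mgl2 was nearly as frequent in the macrophages as in cDC2.

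Flt3, the receptor for the growth factor of conventional dendritic cells, was seen in 48.5% of cDC2, 74.1% of cDC1 and 1.01% of C1q macrophages. Zbtb46, a transcription factor of conventional dendritic cells, was seen in 19.1%, 34.9% and 1.86%. Both were far more frequent in cDC2 than in the macrophages. Irf8, which cDC1 need, was seen in 8.89% of cDC2, 97.4% of cDC1 and 81.4% of C1q macrophages. Of the other cDC1 genes that the gate did not use, Cadm1, Itgae and Tlr3 were seen in 3.50, 0.270 and 2.16% of cDC2. Wdfy4, Naaa and Batf3 were common in cDC2, at 63.9, 58.8 and 56.9% against 97.9, 99.5 and 92.1% of cDC1. In C1q macrophages they were seen in 32.3, 35.2 and 48.1%. Itgam, which encodes CD11b, was seen in 81.7% of cDC2, 8.99% of cDC1 and 61.7% of C1q macrophages. Sirpa was seen in 55.5%, 5.29% and 82.7%, and Cd1d1, which presents lipids, in 4.85%, 14.8% and 13.8%, so both were more frequent in the macrophages than in cDC2. Clec12a, also listed for cDC2, was seen in 69.8% of cDC2, 88.4% of cDC1 and 83.1% of C1q macrophages, and Itgax in 52.6%, 56.6% and 30.1%. Both were thus more frequent in cDC1 than in cDC2. Tmem176a and Tmem176b of that list were seen in 93.8% and 96.2% of cDC2, 5.82% and 10.6% of cDC1, and 88.0% and 91.8% of C1q macrophages. The macrophage receptors Mertk and Adgre1 were seen in 0.539% and 9.16% of cDC2, against 40.9% and 80.2% of C1q macrophages.

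Some cDC2 markers were missing. Dtx1 was at 0 UMIs in the members, and Clec4a4, Esam and Cd4, markers of the splenic cDC2 that depend on Notch2, were each seen in at most 0.539% of them. Il1b, the cytokine interleukin 1 beta, stood at 3988 CPM (UMIs scaled to a common total) in cDC2 against 774 in cDC1 and 1315 in C1q macrophages. Of the markers of other cells, the 5 mast cell and basophil genes, Folr2 of macrophages and Vcan of monocytes were at 0. The 6 T cell genes summed to 0 to 39.9 CPM at 3 months and 0 to 39.0 at 15 months, and the 5 NK cell genes to 2.64 to 137 and 0 to 8.27. The 6 stromal genes summed to 0 to 2.64 CPM at 3 months and 0 to 89.2 at 15 months, and the 12 macrophage genes to 224 to 353 and 321 to 499. The 7 classical monocyte genes summed to 525 to 657 CPM at 3 months and 671 to 1083 at 15 months, and the 6 non-classical monocyte genes to 39.9 to 46.7 and 60.7 to 99.0. Both monocyte sums were higher in every 15-month pool than in any 3-month pool. Over all members the classical sum was 843 CPM, of which Ccr2 gave 407 and Plac8 321, and it was 916 in cDC1. Ccr2 and Plac8 were seen in 95.8% and 87.3% of cDC1, so the classical sum is not particular to monocytes. The 5 neutrophil genes summed to 2.64 to 13.3 CPM and 7.14 to 172. These sums over markers of other cells differed between pools, and their part in the results below was not tested except where a value is given.

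**Figure D1:**
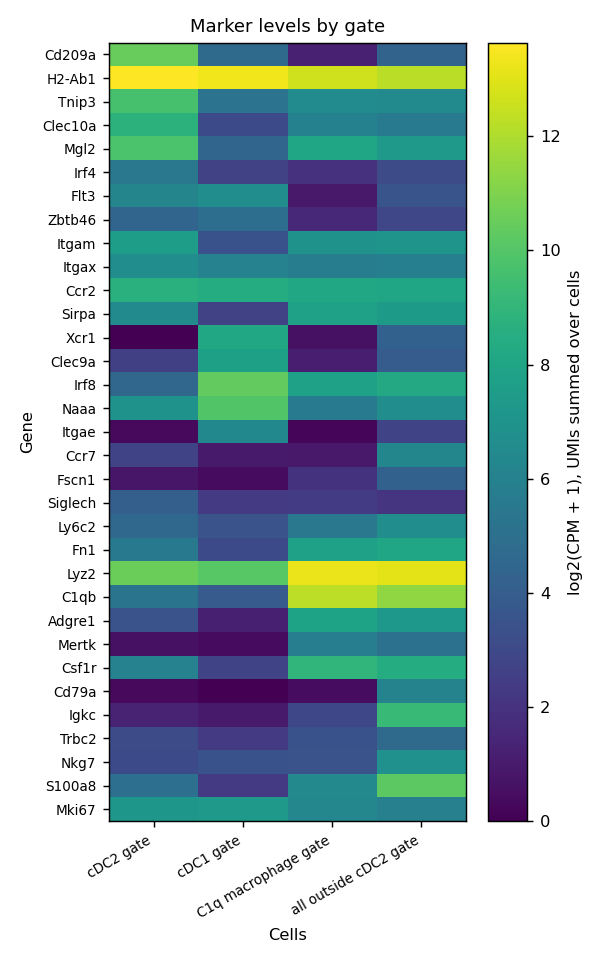
Level of marker genes (rows) in the cDC2 gate, the cDC1 gate, the C1q macrophage gate and all kept cells outside the cDC2 gate (columns). Colour is log2(CPM + 1) of UMIs summed over the cells, and Cd209a, H2-Ab1, Xcr1, Clec9a, Ccr7, C1qb and Cd79a were used by the gates; Tnip3, Clec10a, Mgl2 and Irf4 are brightest in the cDC2 column.

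A set of 4 members stood apart before any comparison. They all lay in 3-month pool 3 and had 20.1, 59.7, 64.0 and 81.8% of their UMIs from haemoglobin genes. The median haemoglobin share of the members was 0.0430, 0.0368 and 0.0407% in the 3-month pools and 0 in each 15-month pool. Results that turn on those 4 cells are given with and without them.

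cDC2 were 5.10, 7.10 and 9.62% of the kept cells in the 3-month pools and 3.78, 6.16 and 3.01% in the 15-month pools. The ranges overlapped, because 15-month pool 2 lay above 3-month pool 1. The pools averaged 7.27 ± 2.26% for the young mice and 4.32 ± 1.64% for the old (SD over n = 3 pools of an age). The difference of -2.96 percentage points did not pass a two-sided exact permutation test (p = 0.200), whose smallest possible p with 3 against 3 pools is 0.1. The cells of 1 sort share 1 total, so a lower share of cDC2 and a higher share of other cells cannot be told apart.

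**Figure D2:**
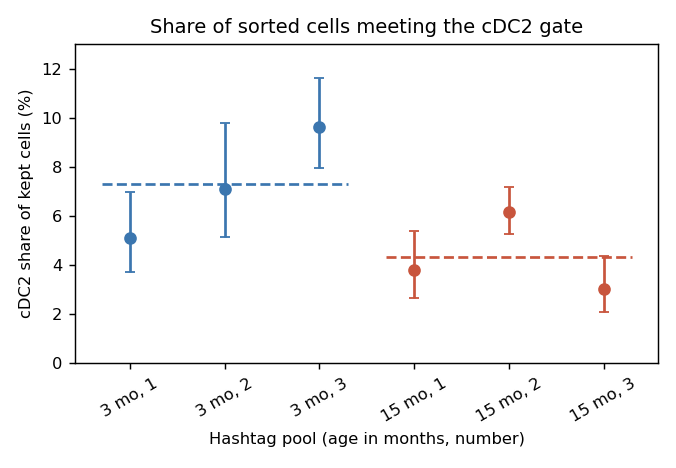
Share of kept cells that met the cDC2 gate in each hashtag pool, in percent, with 95% Wilson intervals that cover counting error only; dashed lines are the means of the 3 pools of an age. Pools 1 and 3 of 15 months lie below every 3-month pool, and 15-month pool 2 lies within their range.

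The members were not uniform. Clustering of the 371 cells alone, without the gate and haemoglobin genes, gave 7 sub-clusters. The same genes place a cell in a sub-cluster and differ between sub-clusters, so the genes and the sizes are 1 observation and carry no test. No sub-cluster was given the name of a cell type. The share of each sub-cluster is given as a percent of the cDC2 of a pool.

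Sub-cluster 0 held 110 cells, led by haemoglobin transcripts, the chemokine gene Ccl2, the mannose receptor gene Mrc1 and the Fc receptor gene Fcgr3, and it held 3 of the 4 haemoglobin-rich members. It made up 29.7, 20.6 and 69.1% of the cDC2 in the 3-month pools and 17.2, 12 and 14.8% in the 15-month pools. All 3-month pools lay above all 15-month pools, and 3-month pool 3 alone supplied 65 of the 110 cells. Cd209a stood at 2065 CPM in it, the highest level of the 7 sub-clusters. At a coarser resolution of 0.3, the set led by haemoglobin genes was wider, with 174 cells. Its leading genes also held Ccl5, which leads sub-cluster 2, so it does not stand for sub-cluster 0 alone. It held 17 of 37, 12 of 34 and 75 of 94 members of the 3-month pools. It held 17 of 29, 41 of 150 and 12 of 27 members of the 15-month pools, so the ages overlapped in that wider set. At 1.0 the leading genes of sub-cluster 0 were spread over several sets. The set led by Cxcl10 and Ccl2 held 4, 3 and 32 cells of the 3-month pools and 0, 9 and 4 of the 15-month pools. That led by Hbb-bs and Hbb-bt held 6, 3 and 20 against 0, 1 and 0. That led by Hba-a2, with Fam220a, held 1, 1 and 12 against 5, 9 and 0.

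Sub-cluster 1 held 91 cells, with Cd7, Nupr1, Ctsl and Plac8 among its 10 leading genes. It made up 5.41, 17.6 and 10.6% of the cDC2 in the 3-month pools and 27.6, 38 and 29.6% in the 15-month pools. Every 15-month pool lay above every 3-month pool, with a mean of 31.7 ± 5.52% against 11.2 ± 6.14% (SD, n = 3 pools each). Flt3 was seen in 71.4% of its cells at 134 CPM, above the 21.8 to 87.1 CPM of the other sub-clusters, while Mgl2 was at 206 CPM, against 1149 in sub-cluster 0. The ages stayed apart at resolution 0.3 for the set led by Ly6c2 and Cd7. At 1.0 the leading genes of sub-cluster 1 were divided between sets, so no single set stands for the whole sub-cluster. The set led by Cd7 held 0, 1 and 5 cells of the 3-month pools and 7, 35 and 1 of the 15-month pools. In 15-month pool 3 it was 1 of 27 members, a lower share than 5 of 94 in 3-month pool 3. The set led by F13a1, Ly6c2, Nupr1 and Plac8 held 3, 5 and 4 cells of the 3-month pools and 3, 20 and 7 of the 15-month pools.

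Sub-cluster 2 held 60 cells, led by the chemokine gene Ccl5, by Tbc1d4, a regulator of glucose transporter traffic, and by Ltb, which encodes lymphotoxin beta. It made up 16.2, 14.7 and 8.51% in the 3-month pools and 37.9, 14.7 and 29.6% in the 15-month pools, and the ranges overlapped through 15-month pool 2. Tnip3 was at 1467 CPM in it. Kit, the stem cell factor receptor gene, was seen in 43.3% of its cells against 0 to 32.1% in the other sub-clusters.

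Sub-cluster 3 held 42 cells, led by Ccl17, the ligand of CCR4 on T cells, Timp1, Ifitm1, Il4i1 and Ms4a6d, with Ccl22, the other CCR4 ligand, among its 10 leading genes. It made up 32.4, 35.3 and 3.19% in the 3-month pools and 0, 9.33 and 3.70% in the 15-month pools. The first 2 of the 3-month pools were far above the rest, and 3-month pool 3 lay among the 15-month pools. Mgl2 stood at 2549.7 CPM and Ccl17 at 2012, with Ccl17 seen in 52.4% of the cells.

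Sub-clusters 4 and 5 were led by genes of the cell cycle. The 29 cells of sub-cluster 4 were led by histone genes, Ube2c, Birc5 and Top2a, which serve mitosis and chromosome condensation, and had a median of 16732 UMIs. The 28 cells of sub-cluster 5 were led by Hells, Clspn and 4 genes of the replicative helicase, Mcm5, Mcm6, Mcm3 and Mcm7. Together these 57 cells made up 13.5, 5.88 and 7.45% of the cDC2 in the 3-month pools and 10.3, 24 and 14.8% in the 15-month pools, which overlapped. Mki67, a marker of cycling cells, was seen in 100% of sub-cluster 4 and 75.0% of sub-cluster 5.

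The 11 cells of sub-cluster 6 went against the label. They were led by the monocyte genes Ly6c2, Lyz2 and F13a1, with Lyz2 at 18385 CPM against 284 to 1938 in the other sub-clusters. Irf4, Zbtb46 and Mgl2 had no UMI in them, and Cd209a was at 588 CPM against 1017 or more elsewhere. Each pool held 1 to 3 of these cells.

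**Figure D3:**
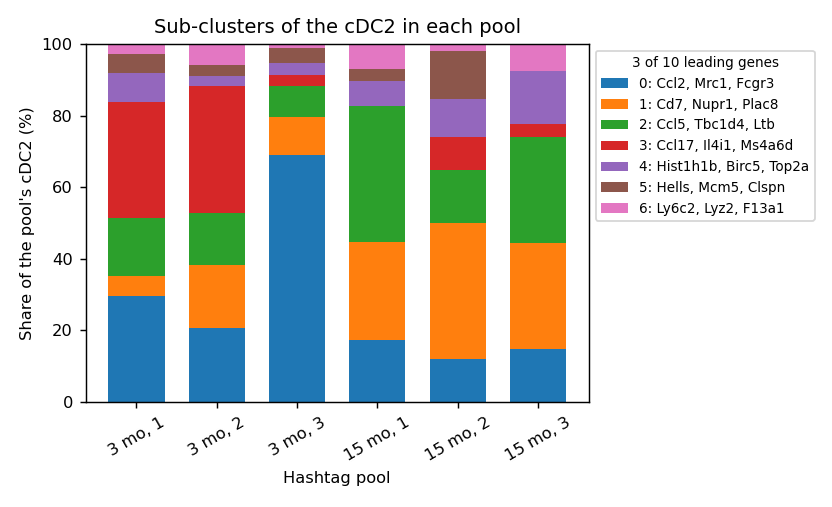
Share of the cDC2 of each hashtag pool that fell in each of 7 sub-clusters, in percent, with 3 of the 10 leading genes of each in the key. Sub-cluster 0 fills 69.1% of 3-month pool 3, sub-cluster 3 is at least 32.4% of 3-month pools 1 and 2 only, and sub-cluster 1 is larger in each 15-month pool than in any 3-month pool.

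For the comparison of ages within cDC2, UMIs were summed over the members of each pool and tested with edgeR's quasi-likelihood test. Levels in this comparison are CPM scaled by TMM factors, and log2 ratios are 15 months over 3 months, with their standard error. Of 3978 genes tested, 1 passed a Benjamini-Hochberg adjusted p of 0.05 (0.0251% of those tested). No gene passed as lower. At an unadjusted p under 0.05 edgeR gave 381 genes (9.58%), and DESeq2 called 8 genes (0.201%), 4 higher and 4 lower. The log2 ratios were balanced, with 1986 positive (49.9%) and a median of -0.00. Pools of the 2 ages did not overlap for 346 genes higher at 15 months (8.7%) and 312 lower (7.84%), the background against which such counts are read below.

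The gene that rose was Gm42418, a noncoding gene model at chr17:39846958-39848788 on the plus strand, known for collecting reads of ribosomal RNA. It was singled out after its values were seen, since predicted gene models were otherwise counted and not named. It stood at 1436, 1694 and 1677 CPM in the 3-month pools and 6414, 4984 and 6024 in the 15-month pools. The ages were well apart, with a log2 ratio of 1.86 ± 0.16 (edgeR adjusted p = 1.99e-05). AY036118, an overlapping model on the other strand, had a log2 ratio of 1.35 (edgeR adjusted p = 0.0549). Lars2, a mitochondrial leucyl-tRNA synthetase, stood at 28.2, 39.3 and 34.7 CPM against 108, 75.9 and 88.7, with a log2 ratio of 1.34 (edgeR adjusted p = 0.0535, and 0.0313 without the 4 haemoglobin-rich cells). The same fits in the other cells of the same pools gave Gm42418 1.53 in C1q macrophages and 1.61 in all cells outside the gate, and Lars2 1.02 and 1.29, all past the adjusted threshold in edgeR. These transcripts were therefore higher in the 15-month library outside cDC2 too.

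Leaving out the 4 haemoglobin-rich members gave 14 genes of 4025 tested (0.348%), 7 higher and 7 lower (0.174% each). The higher genes were Gm42418, Cenpe, Tbc1d4, Lars2, Plac8, Cenpf and AY036118. The lower ones were Hbb-bs, Hba-a1, Hba-a2, Mt1, Ier3, Il1a and a predicted gene model. The genes below that passed only without those 4 cells are given with the adjusted p of both fits.

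Tbc1d4 stood at 115, 108 and 78.3 CPM in the 3-month pools and 447, 179.7 and 307 in the 15-month pools. All 15-month pools were above all 3-month pools, with a log2 ratio of 1.60 ± 0.30 (edgeR adjusted p = 0.0535, and 0.0313 without the 4 cells). In C1q macrophages the same gene had a log2 ratio of -0.21 and in all cells outside the gate -0.71. Plac8, a leading gene of sub-cluster 1 that is also abundant in monocytes, stood at 149, 189 and 158 CPM against 263, 463 and 322, and the pools did not overlap. Its log2 ratio was 1.12 ± 0.22 (edgeR adjusted p = 0.0535, and 0.0321 without the 4 cells). Cenpe, a kinesin of the mitotic kinetochore, stood at 7.69, 10.5 and 20.5 CPM against 46.8, 49.7 and 55.4. Its log2 ratio was 1.78 ± 0.35 (edgeR adjusted p = 0.0535, and 0.0127 without the 4 cells).

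Ier3, an early-response gene that protects cells from death, stood at 277, 545 and 528 CPM in the 3-month pools and 223, 166 and 174 in the 15-month pools. The pools did not overlap and the log2 ratio was -1.29 ± 0.24 (edgeR adjusted p = 0.0535, and 0.0313 without the 4 cells). Mt1, a metal-binding metallothionein, stood at 1992, 1654 and 1626 CPM against 1113, 851 and 949.9. Its log2 ratio was -0.86 ± 0.17 (edgeR adjusted p = 0.0549, and 0.0313 without the 4 cells). Hbb-bs, a beta globin, stood at 264, 299 and 43878 CPM against 21.6, 15.6 and 22.2. The value of 3-month pool 3 came from its 4 haemoglobin-rich cells, and without them the log2 ratio of Hbb-bs went from -9.65 ± 1.73 (edgeR adjusted p = 0.0535) to -3.97 ± 0.24 (edgeR adjusted p = 6.95e-08). Its levels without the 4 cells were 267, 302 and 285 CPM against 21.8, 15.8 and 22.4, so the pools of the ages stayed far apart. The alpha globins Hba-a1 and Hba-a2 likewise passed without those cells, at -4.19 and -3.67 (edgeR adjusted p = 2.95e-05 and 0.000755, and 0.0535 for both with all members). In C1q macrophages the median log2 ratio over 5 haemoglobin genes was -5.22.

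**Figure D4:**
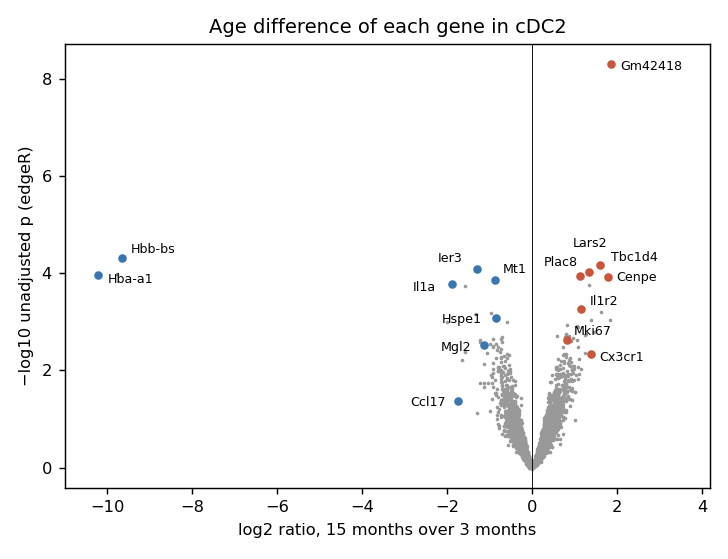
Each point is 1 of 3978 genes in cDC2, with the log2 ratio of 15 months over 3 months on the horizontal axis and -log10 of edgeR's unadjusted p on the vertical axis; named genes are in red (higher) or blue (lower). Gm42418 is the gene past the adjusted threshold, and the haemoglobin genes lie at the far left, where the size of their ratios rests on 4 cells of 1 pool.

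No gene of antigen presentation passed with all pools. Of 13 tested genes of MHC class II presentation other than H2-Ab1, 5 had a positive and 8 a negative log2 ratio, the median was -0.03 with none past the threshold. Cd74, the invariant chain that guards the peptide groove, stood at 24966, 25739.7 and 28309.7 CPM in the 3-month pools and 24034, 19719 and 22915 in the 15-month pools. Its pools did not overlap, yet the log2 ratio was only -0.25 ± 0.12 (edgeR adjusted p = 0.522). H2-DMb1, which helps to load peptides, had the smallest p of the list at -0.40 ± 0.17 (edgeR adjusted p = 0.468). Ciita, the master regulator of these genes, was at 120.5, 159.9 and 144 CPM against 292, 149 and 148, with only 15-month pool 1 high. Of 15 genes of MHC class I and peptide loading, 8 were positive with a median of 0.09. Pdia3, a disulfide isomerase of the peptide-loading complex, had the smallest p of that list, with 561, 805 and 385 CPM against 285, 391 and 292 and a log2 ratio of -0.82 ± 0.24 (edgeR adjusted p = 0.279). B2m, the shared light chain, was at 0.43 ± 0.16 (edgeR adjusted p = 0.402) with 1359, 1248 and 1583 CPM against 1924, 1789 and 1926. Without 3-month pool 3 both passed, Pdia3 at -1.05 and B2m at 0.52 (edgeR adjusted p = 0.00633 and 0.0363).

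Of 13 genes of co-stimulation and co-inhibition, 5 were positive and 8 negative, with a median of -0.05. Cd86, a ligand of CD28, was at 53.8, 55.1 and 52.6 CPM against 68.5, 68.1 and 85.0, and Cd83, a marker of activated dendritic cells, was at 1154, 839 and 1040.1 against 764, 666 and 883. The log2 ratios were 0.42 ± 0.23 for Cd86 and -0.40 ± 0.18 for Cd83, and neither passed. Il12b, a subunit of interleukin 12, had 3 UMIs in 1 cell over all pools, and Il10 had 3 UMIs, too few for a comparison.

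The lectin genes Mgl2 and Clec10a had negative log2 ratios that did not pass. Mgl2 stood at 1909.8, 2014 and 818 CPM in the 3-month pools and 883, 402 and 902 in the 15-month pools. The ranges overlapped through 3-month pool 3, and the log2 ratio was -1.13 ± 0.32 (edgeR adjusted p = 0.261). Clec10a was at 418, 464 and 746 CPM against 425, 288 and 388, a log2 ratio of -0.60 ± 0.23. Cd209a, which the gate used, was at 1402, 1463 and 2168 CPM against 1160.3, 1071 and 1515. Other lectin genes had positive ratios, Clec12a at 0.17 ± 0.26 and Clec4a2 at 0.85 ± 0.30 (edgeR adjusted p = 0.868 and 0.362). Without 3-month pool 3, Clec4a2 passed at 1.53 ± 0.27 (edgeR adjusted p = 0.00488) and Mgl2 passed as lower. Of 12 tested pattern recognition receptors, 6 were positive and 6 negative. The 5 tested Fc receptors had a median of -0.34, with Fcgr2b, the inhibitory IgG receptor, at -0.46 ± 0.25.

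No cytokine or chemokine passed in all members. Il1a, the alarmin interleukin 1 alpha, stood at 46.1, 44.6 and 83.5 CPM in the 3-month pools and 32.4, 12.3 and 18.5 in the 15-month pools. The pools did not overlap and the log2 ratio was -1.88 ± 0.38 (edgeR adjusted p = 0.0549, and 0.0380 without the 4 haemoglobin-rich cells). Ccl4, a chemokine, was at 1205, 1938 and 1463 CPM against 602, 698 and 1072, a log2 ratio of -0.96 ± 0.23 (edgeR adjusted p = 0.162). Ccl17 was at 595, 1466 and 14.1 CPM against 141, 209 and 255, and its level in 3-month pool 3 lay below every other pool. Without sub-cluster 3 the log2 ratio of Ccl17 turned from -1.75 to 0.42. Ccl17 leads that sub-cluster, so the turn follows from the cells left out and is not a separate result. Of the 12 chemokines tested, 7 were positive and 5 negative. Tnf was at 41.0, 28.8 and 78.3 CPM against 129.7, 70.3 and 73.9, a log2 ratio of 0.68 ± 0.33.

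Among receptors, Il1r2, the decoy receptor for interleukin 1, stood at 41.0, 39.3 and 28.3 CPM in the 3-month pools and 57.7, 83.7 and 85.0 in the 15-month pools. The pools did not overlap, with a log2 ratio of 1.15 ± 0.26 (edgeR adjusted p = 0.155). The 22 growth factor and cytokine receptors tested had 15 positive and 7 negative ratios and a median of 0.28. The pools of the ages were apart for 2 higher and 1 lower, against 8.7% and 7.84% of all genes, so near that background. Flt3 was at 56.4, 36.7 and 64.2 CPM against 43.2, 89.8 and 88.7, which overlapped. Cx3cr1, the fractalkine receptor, was at 38.5, 2.62 and 21.8 CPM against 54.1, 50.8 and 70.2, a log2 ratio of 1.38 ± 0.42 (edgeR adjusted p = 0.302). Of 13 inhibitory receptors and their mediators, 11 were positive with a median of 0.29. Pools were apart for 5 higher and 1 lower, against 8.7% and 7.84% of all genes. Sirpa, which binds CD47, was at 69.2, 68.2 and 71.9 CPM against 97.3, 94.9 and 111, whereas Cd200r1 was at 103, 94.4 and 65.5 against 39.6, 45.8 and 48.0. The log2 ratios were 0.51 ± 0.21 and -0.92 ± 0.25. In C1q macrophages of the same pools the inhibitory receptors had a median of 0.28.

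Of 24 transcription factors of dendritic cells, 18 were positive with a median of 0.10, and none passed. Irf4 was at 46.1, 49.8 and 30.8 CPM against 54.1, 44.6 and 44.4, a log2 ratio of 0.20 ± 0.28. Nfil3, a factor of dendritic cell development, was at 115, 110.1 and 78.3 CPM against 54.1, 52.4 and 62.8, and Batf, an AP-1 partner of IRF4, was at 200.0, 159.9 and 221 against 75.7, 96.5 and 181. The pools of Nfil3 did not overlap and its log2 ratio was -0.84 ± 0.24 (edgeR adjusted p = 0.257), while Batf had -0.79 ± 0.26. Ikzf1, which encodes Ikaros, was at 35.9, 23.6 and 69.3 CPM against 82.9, 84.8 and 85.0, a log2 ratio of 0.85 ± 0.30.

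Genes of acute activation gave no common direction. The 28 immediate early genes, which also respond to tissue dissociation, split 13 to 15 with a median of -0.02. Fosb was at 443, 288 and 597 CPM against 746, 717 and 983, and its relative Fos at 1692, 1536 and 2337 against 1340.4, 1412 and 1005. Both were apart between the ages, in opposite directions, with log2 ratios of 0.86 ± 0.23 and -0.57 ± 0.19 that did not pass. The 19 tested NF-kB targets had a median of 0.03. Of 38 interferon-stimulated genes, 14 were abundant enough to test, 6 positive and 8 negative, with a median of -0.03. Isg15 was at 53.8, 70.8 and 203 CPM against 46.8, 40.2 and 96.1, and 1 cell of 3-month pool 3 held 112 of the 158 UMIs of that pool.

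The heat shock chaperones, which fold proteins and are induced by stress, were one-sided. Of the other lists, only haemoglobin, with 3 genes tested, also lay wholly on 1 side. All 11 tested chaperones had a negative log2 ratio with a median of -0.61, and 7 of them had the pools of the ages apart, lower at 15 months, against 7.84% of all genes. None passed the adjusted threshold. Hspe1, the small subunit of the mitochondrial chaperonin, stood at 774, 501 and 532 CPM in the 3-month pools and 277, 365 and 359 in the 15-month pools, a log2 ratio of -0.84 ± 0.20 (edgeR adjusted p = 0.179). Its partner Hspd1 was at 246, 159.9 and 164 CPM against 123, 115 and 99.8, a ratio of -0.74 ± 0.22. Hsph1, a partner of HSP70, was at 64.1, 28.8 and 52.6 CPM against 18.0, 19.5 and 29.6, a ratio of -1.22 ± 0.34, and overlapped in 1 pool. Hsp90ab1, a constitutive HSP90, was at 2715, 2265 and 2105 CPM against 1654, 1746 and 1482, a ratio of -0.54 ± 0.16. The same list had a median of -0.53 in C1q macrophages and -0.54 in all cells outside the gate, which came from the same 2 libraries. Dissociation was done on each sample, and its part in these levels was not tested.

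The list was also looked at for the heat shock element, the sequence bound by heat shock factors. The motif GAANNTTCNNGAA was searched on both strands from 250 bases before to 50 bases after the start of each gene in the RefSeq promoters of GRCm38.p6. It was present in 198 of 32851 promoters (0.603%) and in those of 3 of the 8 tested chaperone genes that the table held, Hspe1, Hspd1 and Hsph1. Hspe1 and Hspd1 are neighbours read in opposite directions, and they share 1 site, where overlapping matches cover 18 bases. The sites are shown because these 3 genes were among the 4 of the list with the smallest p; capitals mark the motif and lower case the flanking bases.
Hspe1 and Hspd1: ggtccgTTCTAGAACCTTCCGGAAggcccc
Hsph1: tgcagaTTCTGGAAAGTTCtcctca
The first sequence lies at chr1:55088053-55088082 on the plus strand and overlaps an exon of Hspd1. The second lies at chr5:149636282-149636306, is read on the minus strand and overlaps an exon of Hsph1. A match describes these letters and says nothing of binding in these cells.

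Transcripts of the mitochondrial genome leaned the other way. Of 12 tested, 10 were positive with a median of 0.30, and pools were apart for 7 higher and 1 lower, against 8.7% and 7.84% of all genes. mt-Co3, a subunit of cytochrome oxidase, was at 2425, 2409.6 and 2546 CPM against 4454, 3350.0 and 3330.1, a log2 ratio of 0.59 ± 0.16 (edgeR adjusted p = 0.239). In C1q macrophages this list had a median of 0.31. The 12 tested genes of glycolysis and hypoxia had 3 positive and 9 negative ratios with a median of -0.29, and Ldha, which makes lactate, was at 443, 451 and 339 CPM against 263, 293 and 277. Its ratio was -0.55 ± 0.18 and did not pass.

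Of 17 tested genes of the cell cycle, 13 were positive and 4 negative, with a median of 0.32. Without 3-month pool 3 the list had 11 positive and 9 negative of 20 tested, with a median of 0.22. In C1q macrophages 20 of 22 were positive with a median of 0.22, and in all cells outside the gate 17 of 22 with 0.21. Mki67 stood at 100.0, 73.4 and 100.2 CPM in the 3-month pools and 119, 195 and 155 in the 15-month pools, and the ages did not overlap. The log2 ratio was 0.82 ± 0.23 (edgeR adjusted p = 0.239). Cenpf, a kinetochore protein, had 1.08 ± 0.36 (edgeR adjusted p = 0.355, and 0.0352 without the 4 haemoglobin-rich cells). The 8 tested genes of senescence and p53 had 1 positive and 7 negative ratios. Cdkn1a, the p21 inhibitor of the cell cycle, was at 564, 663 and 813 CPM against 515, 470.4 and 573, a ratio of -0.40 ± 0.18. Bax, a mediator of cell death, was at 292, 328 and 179.8 CPM against 155, 155 and 170.0, a ratio of -0.72 ± 0.22.

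Of 22 genes of the cytoskeleton and motility, 5 were positive and 17 negative with a median of -0.17, as in C1q macrophages, where the median was also -0.17. Tmsb4x, an actin-binding peptide, was at 32243, 36631 and 31119 CPM against 28816, 26799 and 28618, a ratio of -0.25 ± 0.11. Of the 6 tested steroid hormone receptors and targets, 3 were positive. Tsc22d3, the glucocorticoid-induced leucine zipper and a leading gene of sub-cluster 1, was at 48.7, 23.6 and 71.9 CPM against 93.7, 95.4 and 103, a ratio of 0.91 ± 0.29 (edgeR adjusted p = 0.343). Of 10 tested genes of monocyte-derived cells other than those of the gate, 5 were positive. Lyz2 among them was at 892, 1434 and 1672 CPM against 2973, 1239 and 2565, with 15-month pool 2 inside the 3-month range, and the 11 cells of sub-cluster 6 held 1688 of its UMIs.

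**Figure D5:**
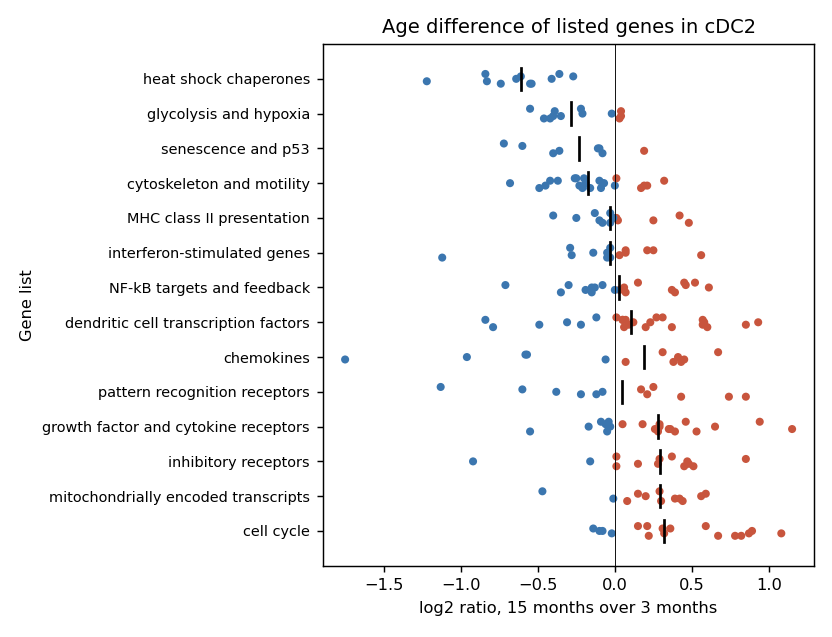
Log2 ratio of 15 months over 3 months in cDC2 for the tested genes of 14 lists, 1 point for each gene, with the median of each list as a black bar; red is above 0 and blue below. The heat shock chaperones lie wholly below 0 (median -0.61), while mitochondrially encoded transcripts and cell cycle genes lie mostly above it (medians 0.30 and 0.32), and no listed gene passed the adjusted threshold.

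The third 3-month pool weighed on how many genes passed. Without it, 94 of 4363 genes passed (2.15%), 36 higher (0.825%) and 58 lower (1.33%), in place of 1. Beside Gm42418 and the haemoglobin genes, those with the smallest p were AA467197, Ms4a6d, Ccl17, Aqp3, Il4i1 and Mgl2, all lower at 15 months. Ms4a6d was at 420.4, 506 and 97.6 CPM in the 3-month pools and 25.2, 88.7 and 129 in the 15-month pools, and Il4i1 at 100.0, 131 and 5.14 against 14.4, 29.0 and 40.7. In 3-month pool 3, Ms4a6d lay within the range of the 15-month pools and Il4i1 below all of them. Of the 10 leading genes of sub-cluster 3, 9 were tested and 5 were among the 58 lower genes (1.33% of all tested). That sub-cluster was 3.19% of the members in the pool left out against at least 32.4% in the other 3-month pools. Its genes and its size come from these same cells, so this overlap follows from the pool left out and is not a separate result. In this setting Hspe1 passed at -0.92 ± 0.20 (edgeR adjusted p = 0.0172) and Hsp90ab1 at -0.61 ± 0.13 (edgeR adjusted p = 0.0166). The heat shock list then had 10 of 11 genes below 0 and a median of -0.47.

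Whether the age difference in cDC2 departed from that in other cells was tested as the interaction of kind of cell and age, with the pool as a block. cDC1 could not be used, as 15-month pools 1 and 3 held 6 and 7 of them. Against C1q macrophages, 1 of 9096 genes passed (0.011%), with 421 at an unadjusted p under 0.05 (4.63%). It was Cd7, an immunoglobulin-family receptor known from T and NK cells and their precursors, whose log2 ratio was 4.76 ± 0.71 higher in cDC2 (edgeR adjusted p = 0.0194). In C1q macrophages Cd7 was scarce, at 4.68, 0 and 3.95 CPM in the 3-month pools and 0.569, 0.580 and 0.279 in the 15-month pools. Cd7 had 7, 1 and 11 UMIs in the cDC2 of the 3-month pools and 3, 124 and 16 in those of the 15-month pools. 15-month pool 2 held most of the Cd7 transcripts, spread over 39 cells, and the call was lost without that pool (edgeR adjusted p = 0.305) and without 3-month pool 1 (edgeR adjusted p = 0.0586).

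Against all kept cells outside the gate, 9 of 10887 genes passed (0.0827%, with 4.02% at an unadjusted p under 0.05), 6 with a higher and 3 with a lower log2 ratio in cDC2. Tbc1d4 differed by 2.19 ± 0.35 (edgeR adjusted p = 0.00366), and its level outside the gate was 58.4, 80.2 and 59.5 CPM of all UMIs in the 3-month pools, above each 15-month pool. The gene was thus higher at 15 months in the cDC2 pools and lower in the sum over all other cells. Its rise in cDC2 alone did not pass with all members (edgeR adjusted p = 0.0535). The difference kept an adjusted p under 0.05 when each pool was left out. Cells outside the gate are a mixture of kinds, so a change in their mix and a change within a kind cannot be told apart. Ier3 differed by -1.37 ± 0.25 (edgeR adjusted p = 0.0150), with 326, 327 and 295 CPM outside the gate at 3 months and 339, 429 and 279.6 at 15 months, and it too kept its call without each pool. Klrd1, which encodes the NK receptor subunit CD94, had 341, 319 and 341 CPM in cDC2 at 3 months and 503, 507 and 343 at 15 months, against 74.2, 51.3 and 62.3 and 40.3, 50.2 and 26.5 outside the gate. The difference was 1.06 ± 0.21 (edgeR adjusted p = 0.0288). In cDC2 alone the log2 ratio of Klrd1 was 0.36 ± 0.19 (edgeR adjusted p = 0.566). The difference thus came in part from the lower level in the other cells. The NK cell genes of the members summed to at most 8.27 CPM at 15 months and at most 137 at 3 months, and a part of NK cells in the Klrd1 levels was not tested. Without the pool block edgeR gave 0 calls in both comparisons, with 350 genes against C1q macrophages and 436 against all other cells at an unadjusted p under 0.05. It also gave 0 calls in both among genes of at least 50 CPM on average, with 127 and 95 at an unadjusted p under 0.05.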

How the data were processed

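The values deposited by the authors are raw UMI counts of 31053 gene IDs and 3 hashtags in called cells, not normalized. Cell Ranger 4.0.0 made them per the file headers, but the submitters' processing notes name version 7.0.0 of it, together with FastQC 0.11.4 and the mm10 build. Ovaries were dissociated with collagenase IV and DNase I, per the labels' protocols, and 8000 cells were aimed at in each library. A barcode was given to a pool where its top hashtag had at least 10 counts and 3 times the second, which left out 51 barcodes at 3 months and 247 at 15 months that passed the other limits. Scrublet marked 3 of 2232 and 3 of 4347 barcodes (0.134% and 0.0690%), too few to have worked, so doublets within a pool remain in.

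The members, the gene lists and the tests were chosen with earlier results of these data known. UMIs of the members were summed for each pool and tested with edgeR 4.0.16 in R 4.3.3 (filterByExpr, TMM, quasi-likelihood, Benjamini-Hochberg over all genes, threshold 0.05), with DESeq2 1.42.0 as an alternative. The common biological coefficient of variation was 0.188, and the precision of each gene is set by the 262572 to 1693130 member UMIs of a pool. CPM in the comparison of ages are divided by TMM-scaled totals, and CPM between kinds of cell or sub-clusters by all UMIs of those cells. Between pools of 1 age, chi-square divided by its degrees of freedom was 1.92 to 10.3 (at most 4.86 without the 4 haemoglobin-rich members), so no pair agreed within counting noise as repeat deposits of a library would. Sub-clusters came from scanpy 1.11.5 with leidenalg 0.10.2 (resolution 0.5). Shares of kept cells were compared with exact permutation tests in scipy 1.17.1. Positions are from GENCODE M21 (GRCm38, the build called mm10).

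Genes named were those past the threshold, the 6 of each direction with the smallest p that did not pass, and up to 4 members of each list with the smallest p. Interaction genes past the threshold and the 10 leading genes of sub-clusters were named as well; a few of these are not reported here. Genes named for their part in cDC2 biology, and those named for the setting without 3-month pool 3, were singled out after their values were seen. The self-test on simulated counts served only to check the scripts. The alternatives were other gates, filters, scalings and tools, depth thinned to 2000 UMIs, each pool left out, and sets of members left out, the last of these chosen after seeing the data.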

Additional observations from a re-analysis of the deposited data

Results flagged for a closer look

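For 10 results the age difference in cDC2 differed from that in other cells of the same pools, by the test of the difference itself, and no cause was tested for any of them. Values are the log2 ratio in cDC2 minus that in the comparison cells. Against C1q macrophages, Cd7 differed by 4.76, and against all kept cells outside the gate by 2.57 (edgeR adjusted p = 0.0194 and 0.0232), with 124 of its 162 UMIs in 15-month pool 2. Both calls were lost without that pool (edgeR adjusted p = 0.305 and 0.345), and the one against C1q macrophages also without 3-month pool 1 (edgeR adjusted p = 0.0586).

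The other differences were against all kept cells outside the gate, a mixture of kinds of cell whose make-up can differ between pools. Tbc1d4 differed by 2.19 and Ier3 by -1.37, both called when any 1 pool was left out. Klrd1 differed by 1.06 (edgeR adjusted p = 0.0288), which was lost without 3-month pool 1 (edgeR adjusted p = 0.0521).

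Igfbp7, a secreted protein of stromal and endothelial cells, differed by 5.45 (edgeR adjusted p = 0.000950). It had 1, 0 and 1 UMIs in the cDC2 of the 3-month pools and 9, 67 and 1 in those of the 15-month pools, and 1 cell held 63 of them. Outside the gate it stood at 294, 466 and 644 CPM at 3 months and 416, 196 and 398 at 15 months.

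Ms4a6d, a membrane protein gene that is among the leading genes of sub-cluster 3, differed by -1.86 (edgeR adjusted p = 0.0135). Its level in cDC2 was 433, 513 and 86.5 CPM at 3 months and 25.0, 93.9 and 133 at 15 months, so 3-month pool 3 lay within the 15-month range. Cxcl9, an interferon gamma-induced chemokine, differed by 2.61 (edgeR adjusted p = 0.0150), with 1, 23 and 38 UMIs in cDC2 at 3 months and 47, 57 and 7 at 15 months. Its 15-month pool 1 UMIs came from 4 cells. Outside the gate Cxcl9 stood at 24.6, 143 and 91.0 CPM at 3 months and 19.1, 17.9 and 34.1 at 15 months. In cDC2 alone its log2 ratio was 0.67 ± 0.66 (edgeR adjusted p = 0.760), so the difference came in part from the lower level in the other cells.

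Apoe, a lipoprotein gene that macrophages express highly, differed by 1.13 (edgeR adjusted p = 0.0382, and 0.0874 without 3-month pool 2). In cDC2 it stood at 114, 95.7 and 181 CPM at 3 months and 478, 202 and 507 at 15 months, far below the 9749 to 15033 outside the gate. Single cells held up to 100 of the 342 UMIs of 15-month pool 2 and 63 of the 133 of pool 3. Il6, the cytokine interleukin 6, differed by -3.08 (edgeR adjusted p = 0.0444). It rested on 2, 11 and 19 UMIs in cDC2 at 3 months and 1, 16 and 4 at 15 months. These were 5.28, 29.2 and 21.6 CPM against 3.57, 9.45 and 15.2, so the ages overlapped in cDC2. Outside the gate, 15-month pools 1 and 2 stood at 24.7 and 19.5 CPM, above every 3-month pool. There 15-month pool 3, at 3.79 CPM, lay within the 3-month range. The difference thus came in part from the higher level in the other cells of 2 pools. Il6 was not called without 3-month pool 2 (edgeR adjusted p = 0.0540) or without 15-month pool 2 (edgeR adjusted p = 0.361).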

How the results depend on the processing

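The share of cDC2 was lower at 15 months in each of 17 alternatives, with p from 0.200 to 0.400 in two-sided exact permutation tests; the difference ran from -4.04 without 3-month pool 1 to -1.78 without 3-month pool 3, and paired by hashtag number the exact p was 0.25, the smallest that 3 pairs allow. The count of genes called with age, 1 in all members, was 8 with DESeq2, 88 of 13212 with no filter on low counts (37 higher, 51 lower), 14 without haemoglobin-rich members and 5 of 903 at 2000 UMIs for each cell. It was 2 to 94 with each pool left out, and with haemoglobin-rich members also left out 14, 5 and 94 without each 3-month pool in turn and 15, 6 and 7 without each 15-month pool; the highest counts came without 3-month pool 3. It was 2 without sub-cluster 3, without sub-cluster 0 and without sub-cluster 1, and Gm42418 was called in each setting run. With the hashtag number as a replicate block the count was 6 (2 higher, 4 lower of 4425). Same-numbered pools correlated at -0.111, 0.173 and 0.0714 over 2340 genes, so the numbers do not pair the pools, and not every pool correlated best with its own number. The interaction counts were 0 without the replicate block, with 350 and 436 genes at an unadjusted p under 0.05 in edgeR, and 0 among genes of at least 50 CPM on average, with 127 and 95. Against C1q macrophages, 5 genes were called without haemoglobin-rich members and 1 to 15 with each pool left out; against all other cells the range was 13 to 52. Resolution 0.3 gave 4 sub-clusters and 1.0 gave 11. By size and leading genes, sub-clusters 0 and 1 were merged with others or split there, so the separation of the ages was not followed in the same cells. Over 96 named genes, 2890 of 2906 values kept their direction and 86 genes never turned. The log2 ratio turned for Il18 without 15-month pool 2 (0.23, and 0.24 with haemoglobin-rich members also left out; -1.10 to 0.23 with each pool left out), Cxcl2 with Cd209a at least 3 UMIs (0.34), Ccr1 without 3-month pool 2 (0.01; from -0.62), Bst2 after thinning (0.11), and, without 3-month pool 3 with or without haemoglobin-rich members, Slfn5 (0.02; from -0.54) and Per1 (0.06; from -0.32). It also turned without sub-cluster 3 for Ccl17 (0.42), Cxcl2 (0.18) and Lgals3 (0.03), without sub-cluster 0 for Fcgrt (0.04), Fcgr3 (0.07) and Per1 (0.12), and without sub-cluster 1 for Fcgr3 (0.00). Ccl17 is a leading gene of sub-cluster 3 and Fcgr3 of sub-cluster 0, so their turns without those cells are not separate results. The cause was not tested. Of the 6 pools, 4 had under 40 members, the filter on low counts left 3978 genes, and 24 of 38 interferon-stimulated genes were too low to test.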

Other observations

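At a finer resolution of 1.0, which was chosen after seeing the data, 9 cDC2 formed a set led by the interferon-stimulated genes Isg15, Ifit1 and Irf7, with 1, 2 and 3 cells in the 3-month pools and 0, 3 and 0 in the 15-month pools. The interferon-induced chemokine gene Cxcl10 was held by few cells too: its 302 UMIs lay in 32 of the 371 members, with 13, 41 and 77 UMIs in the 3-month pools and 27, 110 and 34 in the 15-month pools. In 3-month pool 2 all 41 came from 1 cell. A further set of 6 cells was led by Igfbp7, Trbc2, Cd3g and Nkg7, genes of stromal, T and NK cells, with 0, 1 and 2 cells in the 3-month pools and 0, 3 and 0 in the 15-month pools. Leaving out the 6 members with at least 3 UMIs of T and NK cell genes kept the number of genes called with age at 1.

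Sub-cluster 1 summed to 591 CPM over 6 plasmacytoid dendritic cell genes, close to the 534 of sub-cluster 6, while the other 5 sub-clusters had 183 to 331. C1q macrophages had 612 on the same list, so the sum does not set plasmacytoid cells apart. Over all members Bst2 gave 209 and Tcf4 93.6 of 329.8 CPM, while Siglech was seen in 2.70% and Ccr9 in 1.08% of them. The sum over 8 genes of mature dendritic cells was highest in sub-cluster 3, at 430.0 CPM against 21.8 to 170.3 in the others. Most of it was Il4i1 (206 CPM) and Ccl22 (144 CPM), which are leading genes of that sub-cluster, so the sum is not a separate observation. Of the other genes, Ccr7 was limited by the gate, Cacnb3 had no UMI and Fscn1 had 3 UMIs in all members. At resolution 1.0, the 30 cells of the set led by haemoglobin genes and Il1a came with 6, 3 and 20 cells from the 3-month pools and 0, 1 and 0 from the 15-month pools.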
